A study of Mus musculus with 6 samples.

Results

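The genes described here serve immunoglobulin A (IgA) in the colon: the joining chain and the receptor that carry IgA, genes of the plasma cells that secrete it, and genes of the B cells from which plasma cells arise. They are 9 of the 17778 genes listed for colon RNA, chosen by symbol: *Jchain*, *Pigr*, *Mzb1*, *Derl3*, *Tnfrsf17*, *Pou2af1*, *Cd79a*, *Cd79b* and *Ms4a1*. Obesity-prone (OP) mice were compared with obesity-resistant (OR) mice, with 3 mice of each sequenced as separate libraries. All were wild-type male C57BL/6J mice fed the same high-fat diet, with 60% of its energy from fat, for 16 weeks up to 21 weeks of age. OP mice came from the 10 mice with the highest weight gain and OR mice from the 10 with the lowest, out of 42 mice on this diet. Both groups therefore share strain, genotype and diet and differ by the weight gain used to select them, and no mouse on another diet enters these comparisons. The colon was profiled as bulk tissue.

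In the gut, B cells gather in lymphoid follicles, where they switch to IgA, and then settle in the mucosa as plasma cells. Plasma cells join IgA into dimers through the J chain, encoded by *Jchain*. The polymeric immunoglobulin receptor on the basal side of epithelial cells, encoded by *Pigr*, binds the J chain of the dimer, carries it across the cell and releases it into the lumen. *Jchain* is thus read out in plasma cells and *Pigr* in the epithelium, and their protein products meet at the base of the epithelial cell. The heavy and light chain genes of immunoglobulins were not analysed here.

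The 250 bases that precede the transcription start are shown for the carrier pair and for *Cd79a*, the most abundant of the 3 B cell surface genes described, since these 3 genes give the main contrasts in the data. They are from RefSeq on build GRCm38.p6, which is not the build of the authors' gene set, and each is read 5′ to 3′ on the gene's own strand. Capitals mark the E boxes CAGGTG (found on either strand, so also as CACCTG) and CACGTG, the core letters read by E proteins and by USF factors, respectively. A window was found for 6 of the 9 genes: *Jchain*, *Pigr*, *Derl3*, *Tnfrsf17*, *Cd79a* and *Pou2af1*.
Jchain, chr5:88527898-88528147, minus strand: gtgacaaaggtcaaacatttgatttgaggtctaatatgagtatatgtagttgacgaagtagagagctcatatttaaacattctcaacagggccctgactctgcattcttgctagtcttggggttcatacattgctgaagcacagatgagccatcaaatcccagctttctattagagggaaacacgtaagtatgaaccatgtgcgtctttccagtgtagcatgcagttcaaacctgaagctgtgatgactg
Pigr, chr1:130826434-130826683, plus strand: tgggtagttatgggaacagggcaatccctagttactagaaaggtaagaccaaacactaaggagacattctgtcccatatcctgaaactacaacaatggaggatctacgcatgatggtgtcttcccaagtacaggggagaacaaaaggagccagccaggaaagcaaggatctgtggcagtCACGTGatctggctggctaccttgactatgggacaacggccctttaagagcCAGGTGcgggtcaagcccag
Cd79a, chr7:24897247-24897496, plus strand: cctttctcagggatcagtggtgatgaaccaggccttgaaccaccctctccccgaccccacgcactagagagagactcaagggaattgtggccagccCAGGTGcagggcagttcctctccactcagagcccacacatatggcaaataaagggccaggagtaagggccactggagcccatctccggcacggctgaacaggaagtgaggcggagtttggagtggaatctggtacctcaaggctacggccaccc

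Counted back from the start, where the last base before it is -1, the *Pigr* window held CAGGTG at -20 to -15 and CACGTG at -71 to -66. The *Cd79a* window held CAGGTG at -154 to -149, and the *Jchain* window held neither E box. Of the other windows, that of *Derl3* held CACCTG at -121 to -116 and CACGTG at -168 to -163. The immunoglobulin octamer ATGCAAAT, searched on both strands, was in 0 of the 6 windows. Over all 32536 promoter windows of the same length, 17.3% held CAGGTG or CACCTG, 6.04% held CACGTG and 1.62% held the octamer. These matches describe letters only, and no binding was measured.

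Levels are given as FPKM, a read count scaled to transcript length and library size, and FPKM totals were 585350 to 600028 per mouse. Read totals are unknown, so no counting error can be set on a value. The tissue label held: the 12 epithelial markers summed to between 11538 and 15352 FPKM in every mouse, and all 9 genes described were above 0 in each mouse. OP mouse 3 stood apart for B cell genes. Across the 17778 genes, 149 (0.838%) had at least 0.5 FPKM in OP mouse 3 and at least 2 times the highest of the other 5 mice, a limit chosen after the values were seen. The same count was 44 in OP mouse 1, 146 in OP mouse 2, 43 in OR mouse 1, 27 in OR mouse 2 and 86 in OR mouse 3. Among the 9 genes described, 4 were of this kind in OP mouse 3 (*Cd79a*, *Cd79b*, *Ms4a1* and *Pou2af1*). Results are therefore given with and without OP mouse 3. In whole colon, fewer cells of a type cannot be told apart from less RNA per cell.

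*Jchain* had lower values in every OP mouse than in any OR mouse, without passing the test across all genes. *Pigr* overlapped between the groups, and the B cell genes were high in 1 OP mouse. Group differences were fitted with limma-trend to log2(FPKM + 1) for the 13520 genes that reached 0.5 FPKM in 3 or more mice. A call required a Benjamini-Hochberg adjusted p (q) below 0.2 together with a fold change above 1.2 or below 0.83. *Ms4a1* missed the filter on low values, so 8 of the 9 genes were tested, and 0 of the 8 were called, against 3 of all genes (0.0222%). At an unadjusted p below 0.05, 1 of the 8 was lower in OP mice (*Jchain*), where the share over all genes was 3.53%, and 0 were higher, where it was 0.503%. OP mice lay wholly below OR mice in 1 of the 8, against 6.81% of all genes. The median log2 difference, OP minus OR, was -0.23 over the 8 genes and -0.10 over all genes. With no filter, when *Ms4a1* enters, the median of the 9 genes was -0.05. Without OP mouse 1 the median of the 8 genes was -0.10. With median-of-ratios scaling in place of the FPKM totals, the median of all genes moved to 0.01 and that of the 8 genes to -0.16. The numbers of all genes lower and higher at an unadjusted p below 0.05 were 477 and 68 as deposited, and 423 and 153 with that scaling.

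**Figure D1:**
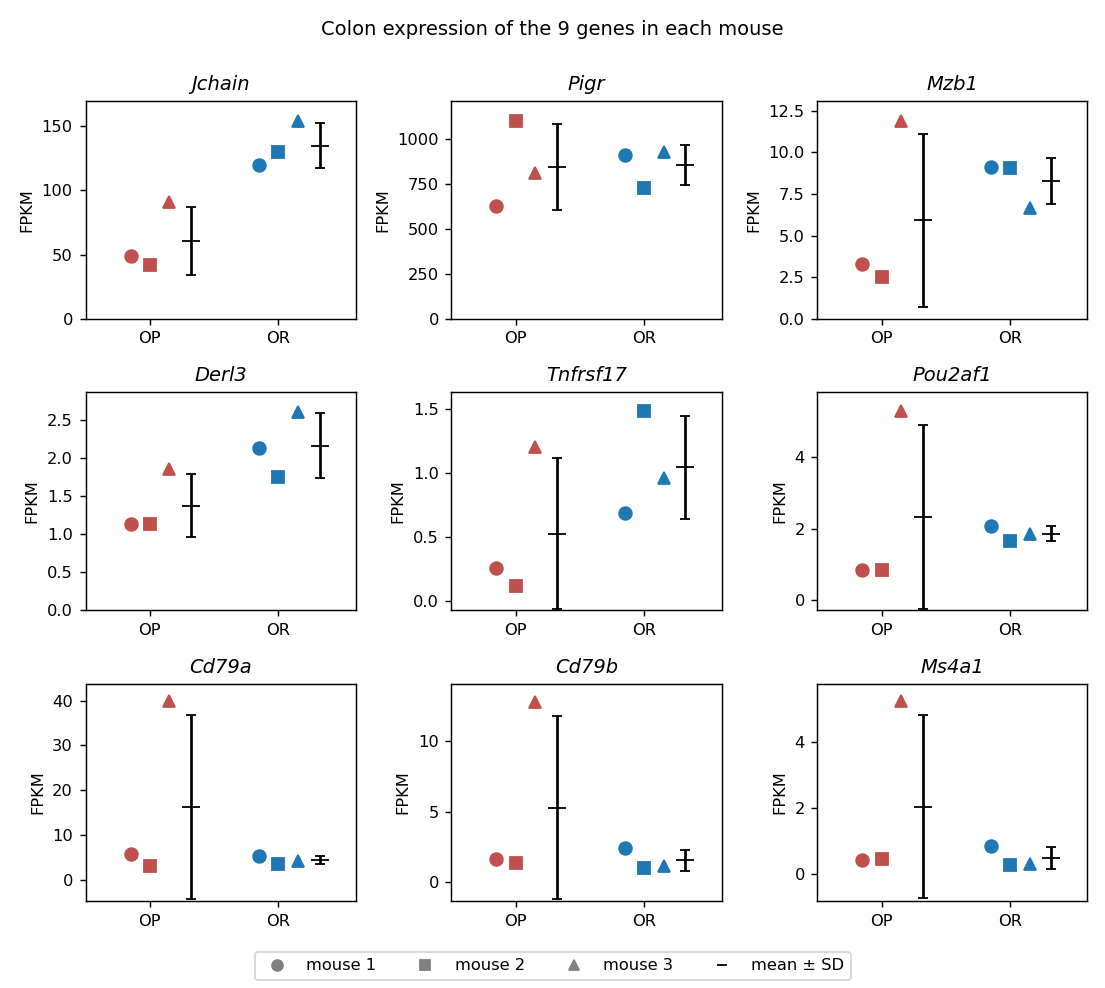
FPKM of the 9 genes in the colon of each mouse, with a panel and a linear y axis for each gene; marker shapes give the mouse number, and the black bars give the mean ± SD of 3 mice. *Jchain* shows OP mice (41.6 to 91.1) below OR mice (120 to 154), *Pigr* shows overlapping groups, and in *Cd79a*, *Cd79b*, *Ms4a1* and *Pou2af1* OP mouse 3 lies above all other mice.

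By mean FPKM *Jchain* ranked 983 of the 17778 genes. It was expressed at 48.8, 41.6 and 91.1 FPKM in OP mice 1, 2 and 3 and at 120, 130 and 154 FPKM in OR mice 1, 2 and 3. Every OP mouse was below every OR mouse, and OP mouse 3 was the closest to the OR mice. The means were 60.5 ± 26.7 (SD, n = 3) for OP and 135 ± 17.6 (SD, n = 3) for OR, 2.23-fold higher in the latter. On the log2 scale the difference was -1.22 (SE 0.28, 95% interval -1.88 to -0.56), with an unadjusted limma p of 0.00306. Adjusted over all genes, q was 0.766, so *Jchain* did not pass the test. The two-sided exact permutation p was 0.1, the smallest that 3 mice against 3 can give. Without OP mouse 3 the difference was -1.55 (SE 0.16, unadjusted p = 6.93e-05, q = 0.329), again short of the threshold.

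*Pigr* was the most abundant of the 9 genes, and at rank 115 of the 17778 by mean FPKM it was among the highest genes in the colon. Its levels were 625, 1103 and 809 FPKM in OP mice 1, 2 and 3 and 911, 727 and 928 FPKM in the OR mice. The lowest and the highest mouse were both OP mice, and the OR mice fell between them. The means were 846 ± 241 (SD, n = 3) and 855 ± 111 (SD, n = 3), with a log2 difference of -0.05 (95% interval -0.59 to 0.50, unadjusted p = 0.849, q = 0.980). The exact permutation p was 1.0. A *Pigr* difference within this interval was not detectable with these mice. Its sign was not stable: with median-of-ratios scaling the log2 difference was 0.09.

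The balance of the carrier pair did not overlap between the groups. *Pigr* exceeded *Jchain* in FPKM by 12.8-fold, 26.5-fold and 8.89-fold in OP mice 1, 2 and 3, and by 7.59-fold, 5.58-fold and 6.01-fold in OR mice 1, 2 and 3. The lowest OP ratio was above the highest OR ratio, and the OP ratios were spread more widely. As log2 values the ratios were 3.85 ± 0.80 (SD, n = 3) for OP and 2.66 ± 0.23 (SD, n = 3) for OR, a difference of 1.19 or 2.28-fold. The two-sided exact permutation p was 0.1, the smallest possible, and the p of this ratio was not adjusted. This ratio restates the *Jchain* difference against a *Pigr* level that did not separate the groups, and it is not a second, separate result.

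**Figure D2:**
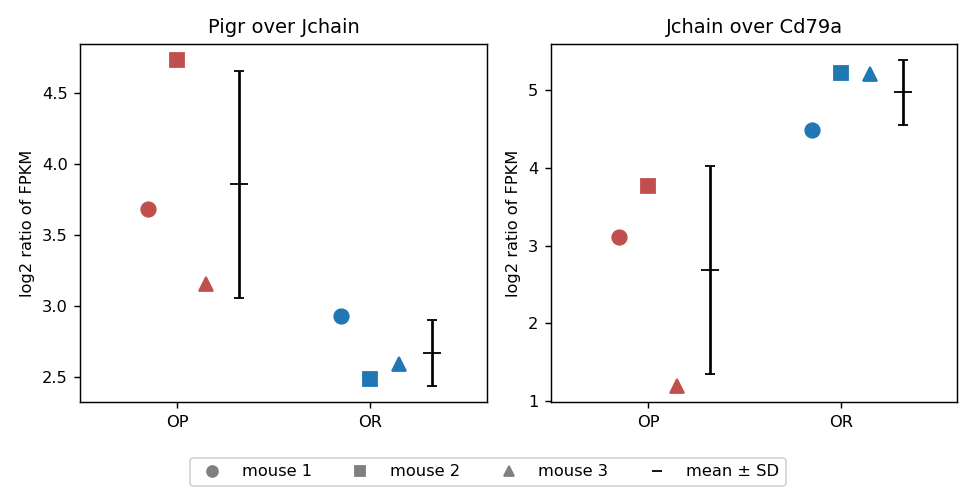
Log2 ratios of FPKM within each mouse for *Pigr* over *Jchain* (left) and *Jchain* over *Cd79a* (right); points are mice, and black bars give the mean ± SD of 3 mice. The y axes do not start at 0. In both panels the OP and OR mice do not overlap, and OP mouse 3 is the lowest of the OP mice in both.

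The plasma cell genes *Mzb1*, *Derl3* and *Tnfrsf17* had lower values in OP mice 1 and 2 than in every OR mouse, while OP mouse 3 lay within or above the OR range. *Mzb1* encodes a chaperone of the endoplasmic reticulum that helps B cells and plasma cells assemble immunoglobulin. It was at 3.31, 2.5 and 11.9 FPKM in OP mice 1, 2 and 3 and at 9.1, 9.05 and 6.66 FPKM in the OR mice. OP mouse 3 was the highest of all 6 mice and the other OP mice were the lowest. The difference on the log2 scale was -0.67 (SE 0.47, 95% interval -1.76 to 0.43, unadjusted p = 0.196, q = 0.945). Without OP mouse 3 it was -1.24 (SE 0.22, unadjusted p = 0.00131, q = 0.329), with the OR mean 2.85-fold above the mean of OP mice 1 and 2.

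*Derl3* encodes derlin-3, a part of the machinery that clears misfolded proteins from the endoplasmic reticulum. Its values were 1.13, 1.14 and 1.86 FPKM in OP mice 1, 2 and 3 and 2.14, 1.75 and 2.61 FPKM in the OR mice. The groups overlapped only through OP mouse 3, which was above OR mouse 2. Its log2 difference was -0.42 (SE 0.20, 95% interval -0.90 to 0.06, unadjusted p = 0.0770, q = 0.945), and -0.56 (SE 0.19, unadjusted p = 0.0253, q = 0.474) without OP mouse 3.

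*Tnfrsf17* encodes BCMA, the receptor through which plasma cells receive the survival factors APRIL and BAFF. Its values were 0.26, 0.12 and 1.2 FPKM in OP mice 1, 2 and 3 and 0.69, 1.48 and 0.96 FPKM in the OR mice. OP mouse 3 exceeded OR mice 1 and 3, and the other OP mice were the lowest of all. At these low levels the log2 difference on the FPKM + 1 scale is compressed. It was -0.47 (SE 0.29, 95% interval -1.14 to 0.21, unadjusted p = 0.147, q = 0.945), and -0.76 (SE 0.21, unadjusted p = 0.0103, q = 0.407) without OP mouse 3.

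*Pou2af1* encodes a coactivator of octamer-binding transcription factors that acts in both B cells and plasma cells. It was at 0.84, 0.84 and 5.28 FPKM in OP mice 1, 2 and 3 and at 2.08, 1.65 and 1.85 FPKM in the OR mice. OP mouse 3 was 2.54-fold above the highest other mouse, and the other OP mice were the lowest. With all mice the log2 difference was -0.04 (SE 0.46, 95% interval -1.13 to 1.04, unadjusted p = 0.928, q = 0.989), and 0.02 with median-of-ratios scaling. Without OP mouse 3 it was -0.63 (SE 0.17, unadjusted p = 0.00855, q = 0.393), with the OR mean 2.21-fold above the mean of OP mice 1 and 2. The high *Pou2af1* value was part of the ground for setting OP mouse 3 apart. Leaving that mouse out therefore lowers the OP mean of this gene by construction, and the p is not a test.

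The B cell surface genes were high in OP mouse 3 alone. *Cd79a*, which encodes a signalling chain of the B cell receptor, was at 5.67, 3.05 and 39.8 FPKM in OP mice 1, 2 and 3 and at 5.34, 3.51 and 4.2 FPKM in the OR mice. OP mouse 3 was 7.03-fold above the highest other mouse, and the other 5 mice overlapped across the groups. OP minus OR, the log2 difference was 0.96 (SE 0.77, 95% interval -0.84 to 2.77, unadjusted p = 0.249, q = 0.945), and -0.03 (unadjusted p = 0.926) without OP mouse 3. Without OP mouse 2 it was 1.64 (unadjusted p = 0.0495), the only fit in which a gene of the 8 was higher in OP mice at that level.

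*Cd79b* encodes the partner chain of CD79A. It was at 1.69, 1.4 and 12.8 FPKM in OP mice 1, 2 and 3 and at 2.44, 1.05 and 1.16 FPKM in the OR mice. Again OP mouse 3 was the highest, by 5.23-fold, and the other mice overlapped. The log2 difference was 0.85 (SE 0.64, 95% interval -0.66 to 2.36, unadjusted p = 0.228), and 0.04 (unadjusted p = 0.899) without OP mouse 3.

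*Ms4a1* encodes CD20, a surface protein of B cells that plasma cells lose. Its values were 0.4, 0.45 and 5.24 FPKM in OP mice 1, 2 and 3 and 0.85, 0.26 and 0.29 FPKM in the OR mice. OP mouse 3 was 6.17-fold above OR mouse 1, the next highest, and the other mice overlapped. Fitted with no filter on low values, the log2 difference was 0.69 (SE 0.58, unadjusted p = 0.277, q = 0.948). The mean of OP mice 1 and 2 was 0.425 FPKM, against 0.467 ± 0.332 (SD, n = 3) for OR.

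**Figure D3:**
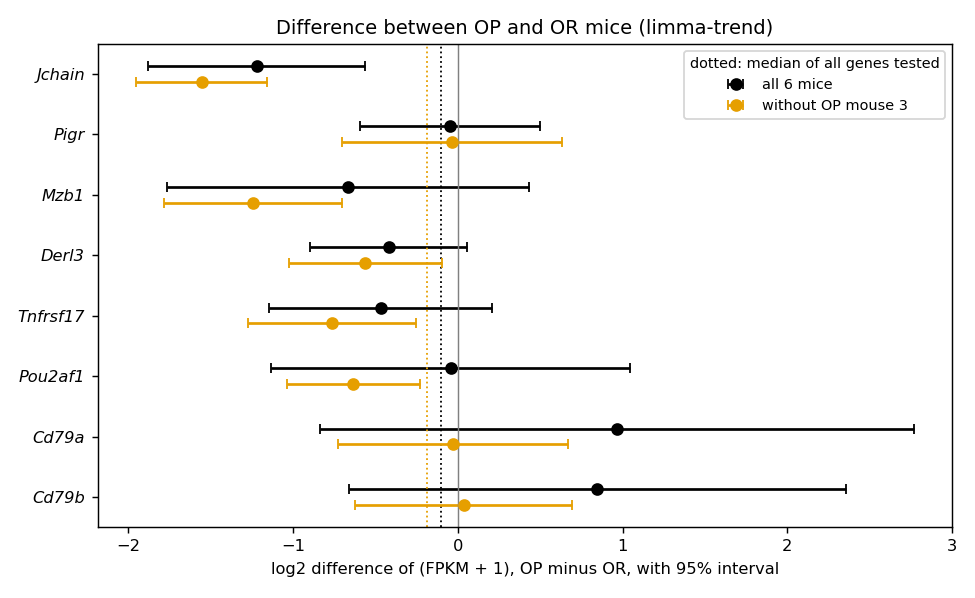
Log2 difference of FPKM + 1, OP minus OR, with 95% limma intervals for the 8 genes tested, from all 6 mice (black) and without OP mouse 3 (orange); dotted lines give the median of all genes tested in each fit, -0.10 and -0.18. With all mice the *Jchain* interval alone lies wholly below 0, and without OP mouse 3 those of *Mzb1*, *Derl3*, *Tnfrsf17* and *Pou2af1* do so too.

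Without OP mouse 3, 5 of the 8 genes had an unadjusted p below 0.05 and were lower in OP mice (*Jchain*, *Mzb1*, *Derl3*, *Tnfrsf17* and *Pou2af1*), where the share over all genes was 8.17%. The same 5 did not overlap between the groups, against 23.1% of all genes. Their median log2 difference with the other 3 genes was -0.60, against -0.18 over all genes, and 0 of the 8 were called, the lowest q being 0.329. *Pigr*, *Cd79a* and *Cd79b* were not among the 5. Leaving out a mouse on the ground of its B cell values was chosen with those values known, so the 5 genes describe OP mice 1 and 2 and do not add a test.

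The relation of plasma cell to B cell transcripts was set out by dividing *Jchain* by *Cd79a*. This ratio was 8.61, 13.7 and 2.29 in OP mice 1, 2 and 3 and 22.5, 37.1 and 36.8 in OR mice 1, 2 and 3. Each OP mouse was below each OR mouse, and OP mouse 3 was the lowest. In OP mouse 3 *Cd79a* was high, whereas in OP mice 1 and 2 *Cd79a* was within 3.05 to 5.67 FPKM and *Jchain* was low. As log2 values the ratios were 2.69 ± 1.34 (SD, n = 3) for OP and 4.97 ± 0.41 (SD, n = 3) for OR, a difference of -2.28, or 4.85-fold lower in OP. The two-sided exact permutation p was 0.1, the smallest possible. Without OP mouse 3 the difference was -1.53. In the limma fit without that mouse *Jchain* alone differed by -1.55 and *Cd79a* by -0.03. This ratio restates the *Jchain* difference together with the high *Cd79a* of OP mouse 3, and it is not a separate result.

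The same split by mouse was seen in further B cell genes. Of 19 such genes listed, 18 were highest in OP mouse 3 and 17 had at least 2 times the level of any other mouse, with a median of 4.83-fold and up to 11.5-fold for *Fcmr*, the receptor for IgM. The exceptions were *Blnk*, an adaptor of B cell receptor signalling, and *Ebf1*, a factor of B cell identity. *Blnk* had 53.1 to 76.3 FPKM over the 6 mice, above *Cd79a* in each of them. *Cr2* and *Fcer2a*, too low to be tested, were also higher in OP mice 1 and 2 than in every OR mouse. In OP mice 1 and 2 *Cr2* had 0.28 and 0.29 FPKM, against 0.06 to 0.22 in OR mice. *Fcer2a* had 0.52 and 0.21, against 0.02 to 0.18. *Spib*, a transcription factor of B cells and of epithelial M cells, had 17.1 FPKM in OP mouse 3 and 3.45 to 7.28 in the others, and *Cd37*, a tetraspanin of mature B cells, had 16.9 in OP mouse 3 and 2.25 to 4.76 in the others. Of the 12 B cell genes tested, 0 were called and 0 had an unadjusted p below 0.05. Their median log2 difference was 0.51. It was 0.10 without OP mouse 3, when 2 of the 12 were lower at an unadjusted p below 0.05, against 8.17% of all genes. These 2 were *Cd37*, with a log2 difference of -0.56 against 0.20 with all mice, and *Ebf1*, with -0.43.

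Genes of lymphoid follicles and germinal centres followed OP mouse 3 in part. In 7 of the 13 listed, that mouse had at least 2 times the level of any other (*Cxcl13*, *Mef2b*, *Ltb*, *Lta*, *Ccl19*, *Ccr7* and *Gp2*). *Cxcl13*, the chemokine that draws B cells into follicles, was at 6.97, 3.15 and 24.6 FPKM in OP mice 1, 2 and 3 and at 4.82, 6.13 and 3.24 FPKM in the OR mice. *Ltb*, which encodes lymphotoxin beta, was at 16.4 FPKM in OP mouse 3 and 3.56 to 6.81 in the others. T cell markers were also highest in OP mouse 3 in 8 of 11, by a median of 1.15-fold over the next mouse, and 1 of them (*Cd2*, 2.95-fold) reached 2-fold. Of the other cell type markers, 0 of the 12 epithelial, 0 of the 13 macrophage and dendritic cell and 0 of the 12 stromal and muscle markers reached 2 times the highest other mouse. Among the 19 signals for IgA switching, survival and homing 1 did so, *Cxcr4*, at 8.82 FPKM in OP mouse 3 (3.23-fold). How much follicle tissue each piece of colon held was not measured.

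*Ccl21a*, a chemokine of lymphatic vessels and of T cell areas, was not highest in OP mouse 3. It was at 16.1, 19.1 and 31.3 FPKM in OP mice 1, 2 and 3 and at 30.6, 86.1 and 88.2 FPKM in the OR mice. The groups overlapped only between OP mouse 3 and OR mouse 1. Its log2 difference was -1.49 (SE 0.43, unadjusted p = 0.00976, q = 0.929), and -1.76 (unadjusted p = 0.00915) without OP mouse 3. *Ccl20*, a chemokine of the follicle-associated epithelium named here after its values were seen, had the opposite sign (1.22, unadjusted p = 0.0320), with 0.89 (unadjusted p = 0.108) without OP mouse 3. Its levels were 9.85, 2.63 and 11.3 FPKM in OP mice and 1.66, 3.05 and 2.57 FPKM in OR mice, so OP mouse 2 was within the OR range. Over the 8 follicle genes tested the median was 0.02, and 0 were called. The median was -0.28 without OP mouse 3, when 3 of the 8 were lower at an unadjusted p below 0.05, against 8.17% of all genes.

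Other plasma cell genes gave no difference past the thresholds. Of the 15 tested, 0 were called and 0 reached an unadjusted p of 0.05. By sign, 11 were lower in OP mice and 4 were higher. Across the 15 the median log2 difference was -0.07. It was -0.20 without OP mouse 3, when 2 of the 15 were lower at an unadjusted p below 0.05, against 8.17% of all genes. These 2 were *Ly6c2*, with a log2 difference of -0.99, and *Tnfrsf13b*, with -0.47. The most abundant were *Ssr4* and *Sec11c*, which serve protein translocation and signal peptide cleavage in all secretory cells, and *Sdc1*, the syndecan-1 gene, which colon epithelium also expresses. *Ssr4* had 138 to 186 FPKM in OP mice and 158 to 200 in OR mice, *Sdc1* had 78.9 to 125 and 98.4 to 137, and *Sec11c* had 69.9 to 127 and 76.7 to 140. In all 3 the groups overlapped. *Tnfrsf13b*, which encodes TACI, a further receptor for APRIL and BAFF, was the only gene of the list to reach 2-fold in OP mouse 3 (2.48-fold). *Prdm1* went the other way, with a log2 difference of 0.56, and 1.02 without OP mouse 3. Its highest value was in OP mouse 1 (9.69 FPKM), and the groups overlapped. *Fcrl5*, too low to be tested, was at 0.09 to 0.32 FPKM in OP mice and 0 to 0.07 in OR mice, so every OP mouse was above every OR mouse. Fitted with no filter on low values, its log2 difference was 0.27 (unadjusted p = 0.0148, q = 0.922).

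The signals for IgA switching, plasma cell survival and homing gave 1 of 13 tested genes with an unadjusted p below 0.05. This was *Cxcl12*, a stromal chemokine that retains plasma cells, at 6.29, 7.24 and 24.9 FPKM in OP mice 1, 2 and 3 and at 20.2, 21.2 and 37.6 FPKM in the OR mice. OP mouse 3 lay among the OR mice, and the other OP mice were the lowest. Its log2 difference was -1.18 (SE 0.49, unadjusted p = 0.0459, q = 0.945), and its unadjusted p ran from 0.000904 without OP mouse 3 to 0.155 without OP mouse 1. *Ccl28*, the epithelial chemokine that draws IgA plasma cells to the colon, had 10.8, 46.9 and 16.4 FPKM in OP mice and 19.0, 15.9 and 21.7 in OR mice. *Aldh1a1*, an enzyme of retinoic acid synthesis, had 121 to 263 FPKM in OP mice and 155 to 326 in OR mice. Both overlapped between the groups. The median of the 13 was -0.20, or -0.45 without OP mouse 3. In the latter fit 6 of 13 had an unadjusted p below 0.05, all lower in OP mice, and 0 were called. Over all genes, 3.53% were lower at that p with all mice, and 8.17% without OP mouse 3.

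Epithelial genes that carry or regulate the receptor gave 1 gene higher in OP at an unadjusted p below 0.05, against 0.503% of all genes. Of 16 tested, 0 were called, and the median log2 difference was -0.01. Without OP mouse 3 the median was 0.02, and 2 of the 16 were higher at that p, against 181 of all 13520 genes. These 2 were *Irf1* and *Myo5b*. The *Myo5b* log2 difference was 0.48 (unadjusted p = 0.0392) in that fit and 0.37 (unadjusted p = 0.0691) with all mice. The summed level of the 16 genes was 718 to 732 FPKM in OP mice and 637 to 691 in OR mice. That sum includes *Irf1*, the only gene of the 16 with every OP mouse above every OR mouse. The sum without *Irf1* was not taken, so the sums do not show a shift of the whole list. *Rab25*, a small GTPase of apical recycling, had 61.8 to 114 FPKM in OP mice and 98.9 to 112 in OR mice, and *Ap1m2*, an adaptor subunit of basolateral sorting, had 72.2 to 79.1 and 75.1 to 82.8. *Irf1*, an interferon-induced factor known to act on *Pigr* transcription, was at 140, 133 and 123.1 FPKM in OP mice 1, 2 and 3 and at 91.1, 99.9 and 68.1 FPKM in the OR mice. Every OP mouse was above every OR mouse. The *Irf1* log2 difference was 0.62 (SE 0.16, unadjusted p = 0.00626, q = 0.805), which did not pass the test, and 0.67 (unadjusted p = 0.0122) without OP mouse 3.

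The other cell types of the colon moved with the groups to differing degrees, and their part in the *Jchain* difference was not tested. Macrophage and dendritic cell markers summed to 35.5 to 99.2 FPKM in OP mice and 103 to 137 in OR mice. Of 12 tested, 8 were lower at an unadjusted p below 0.05, with a median log2 difference of -0.85. Without OP mouse 3 these became 9 of 12 and -1.08. Stromal and muscle markers summed to 843 to 979 and 1011 to 1739 FPKM, with 5 of 12 lower and a median of -0.78. The 5 were *Dcn*, *Col1a2*, *Pecam1*, *Cdh5* and *Lyve1*. The muscle genes *Acta2*, *Myh11* and *Des*, which hold most of the sum, differed by -0.50, -0.37 and -0.06 and did not reach that p. The list also holds the adipocyte genes *Adipoq*, *Plin1* and *Fabp4*, which overlapped between the groups. Without OP mouse 3 the list had 5 of 12 lower and a median of -0.93. T cell markers summed to 15.8 to 51.8 and 34.9 to 41.0 FPKM, with 0 of 9 at that p and a median of -0.44, which became 6 of 9 and -0.73 without OP mouse 3. Epithelial markers summed to 11665 to 15352 and 11538 to 14646 FPKM, with 0 of 12 and a median of 0.08. Without OP mouse 3 these were 0 of 12 and 0.21. No gene of these lists was called. Over all genes, 3.53% were lower in OP mice at an unadjusted p below 0.05, and 8.17% without OP mouse 3. The *Jchain* difference of -1.22 stood beside negative medians for the macrophage, stromal and T cell lists and 0.08 for the epithelial list. A link between these differences was not tested.

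The genes whose log2(FPKM + 1) levels followed *Jchain* most closely over the 6 mice were *Abca8a* (r = 0.996), *Bicc1* (0.995), *Col18a1* (0.994), *Hpf1* (0.993) and *Plxdc2* (0.991), none of them on the plasma cell list. After median-of-ratios scaling the r of *Hpf1* was 0.575. Among the genes described, *Derl3* had an r of 0.93 with *Jchain*, *Tnfrsf17* 0.85, *Mzb1* 0.80, *Pou2af1* 0.49 and *Cd79a* 0.05. Of 13519 genes, 304 (2.25%) had an r of at least 0.9 with *Jchain*. The nearest to *Pigr* were *Capn13* (0.997), *Mtf1* (0.997), *Snrnp48* (0.996), *Zfp326* (0.996) and *Map3k2* (0.994), and 458 genes (3.39%) reached 0.9. After median-of-ratios scaling the r of *Capn13* was 0.874. *Pigr* and *Jchain* had an r of -0.01 with each other. With 6 mice that share a split into 2 groups and the scaling of their libraries, these values are descriptions of likeness and carry no p.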

How the data were processed

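Colon RNA of 3 OP and 3 OR mice was measured as messenger RNA enriched, strand-specific libraries. The authors deposited FPKM values to 2 decimals for 17778 gene symbols, after SOAPnuke filtering, alignment to a GRCm39 gene set with Bowtie2 and quantification with RSEM. The labels and the methods differ on tool versions, and the processing notes also name HISAT2 2.0.4. Read counts are unknown, so count tests were not run and precision rests on the spread between mice.

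Genes that reached 0.5 FPKM in 3 or more mice (13520) were compared as log2(FPKM + 1) by limma-trend (limma 3.58.1, R 4.3.3), OP minus OR, without covariates, with Benjamini-Hochberg q-values over all genes. Changes of low genes are understated on this scale. Ratios and single genes were compared by exact permutation over the 20 arrangements of the mice (SciPy 1.17.1). The step across genes was tested on simulated data.

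The 9 genes, the lists beside them and the tests were chosen with earlier results of these data known. Genes named beside the 9 were, in each list told gene by gene, the 3 with the highest mean FPKM and those with an unadjusted p below 0.05 and no overlap, and the 5 most like *Jchain* and *Pigr*; others are named after their values were seen. Of the 146 genes of 10 lists, 131 were listed and 109 tested; the list of immunoglobulin constant genes was not analysed here, and 1 follicle gene is not reported here. Alternatives were limma without trend, median-of-ratios and TPM scaling, a pseudocount of 0.1, other filters, sample weights, the replicate block and each mouse left out. Replicate numbers belong to different mice, and same-numbered mice did not deviate together (correlations -0.14, -0.16 and 0.07).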

Additional observations from a re-analysis of the deposited data

How the results depend on the processing

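Each group has 3 mice and read depth is unknown, so values near 1 FPKM carry an unknown counting error. *Jchain* kept its direction and an unadjusted p below 0.05 under all 14 alternatives (log2 difference -1.55 to -0.997), and none of the genes described was called under any. Over all genes, 3 were called lower; this became 0 with at least 1 FPKM in all mice, median-of-ratios scaling, no filter, a pseudocount of 0.1, the replicate block or TPM, 5 with sample weights, and 0 to 1 when each mouse was left out. Fitting mice of equal number as pairs, the replicate block left 0 genes called and gave 409 lower and 66 higher at an unadjusted p below 0.05, and no call on the genes described changed. At that p, 477 genes were lower and 68 higher; at least 1 FPKM in all mice gave 317 lower, and 153, 133 and 146 were higher with median-of-ratios scaling, no filter and sample weights. Leaving out each mouse gave 231 (without OR mouse 3) to 1104 (without OP mouse 3) lower and 24 (without OR mouse 3) to 181 (without OP mouse 3) higher. Of the genes described, 2 were lower with sample weights, and leaving out each mouse gave 1 to 5 lower and 0 to 1 higher. The causes were not tested.

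The following differences changed sign, most of them near 0; that of *Cd79a* was 0.96 with all mice. With median-of-ratios scaling the log2 difference became 0.0931 for *Pigr*, 0.0219 for *Pou2af1*, 0.0305 for *Ssr4*, 0.0155 for *Sdc1*, 0.0782 for *Sec11c* and 0.0992 for *Ap1m2*. With sample weights it became 0.0732 for *Pigr*, -0.00967 for *Cd37*, 0.0525 for *Sec11c* and -0.103 for *Ltb*. Over the fits without 1 mouse it ran from -0.257 to 0.152 for *Pigr*, -0.0276 to 1.64 for *Cd79a*, -0.634 to 0.252 for *Pou2af1*, -0.561 to 0.668 for *Cd37*, -0.250 to 0.0796 for *Sdc1*, -0.278 to 0.194 for *Sec11c*, -0.631 to 0.0702 for *Aldh1a1*, -0.459 to 0.550 for *Ccl28*, -0.552 to 0.415 for *Ltb* and -0.0713 to 0.00249 for *Ap1m2*.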
